A study of Danio rerio with 24 samples.

Results

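The integrated stress response and the serine synthesis enzymes it controls were followed through 10 zebrafish genes: the transcription factors atf4a, atf4b and ddit3, the enzymes asns, psat1, phgdh and shmt2, and the feedback and stress genes trib3, chac1 and sesn2. They were taken by gene name, ignoring case and a final copy letter, and each name matched 1 of the 32520 Ensembl identifiers counted. Of these 10 genes, 8 passed the filter on low counts that left 11238 genes to test, while ddit3 and shmt2 did not. RNA had been counted near transcript 3′ ends (QuantSeq) in whole wild-type embryos of the TLAB strain, and every group below has that background. Embryos were sampled at 3 and 4 hours post fertilization (hpf) after no treatment, after oligomycin at 1 µM, or after actinomycin D at 10 µg/ml, with 4 libraries in each of the 6 groups and 24 in all. The mitochondrial ATP synthase is the target of oligomycin, and actinomycin D stops RNA synthesis. The treatment label has the inhibitors in the medium from laying and the series design has actinomycin D injected, so how actinomycin D was given is unsettled.

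The integrated stress response starts when a kinase phosphorylates the translation factor eIF2, which slows protein synthesis in general while the messenger RNA of ATF4 is translated more. ATF4 then switches on genes for amino acid synthesis and transport, redox balance and feedback control, as worked out mainly in mammalian cells. In human cells, stress from blocked mitochondria reaches eIF2 through the protease OMA1, its substrate DELE1 and the kinase HRI. The early zebrafish embryo lives on RNA laid down by the mother until its own genome becomes active around the times sampled here. Only RNA was counted, so neither ATF4 protein nor eIF2 phosphorylation was measured. In whole embryos, fewer cells that carry an RNA and less RNA per cell cannot be told apart.

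Total counts ran from 1453642 to 3431533 per library with a median of 2675171. Nothing in the labels says whether the 4 libraries of a group came from separate clutches, so p-values measure the spread between these libraries, which may be technical. Library numbers fall into 2 series, with replicates 1 and 2 of every group in the first and replicates 3 and 4 in the second. What a series marks is not stated. Stage was checked with 17 zygotic and 14 maternal marker genes. Summed zygotic markers ran from 181 to 650.0 CPM (the count relative to the TMM-scaled total of its library) in untreated embryos at 3 hpf and from 1526 to 3053 at 4 hpf. With oligomycin they ran from 104 to 383 and from 441 to 1583, and with actinomycin D from 10.6 to 17.1 and from 13.3 to 88.8, the last value in replicate 4 alone. Of the 17 zygotic markers, 1 had no count in any untreated library at 3 hpf and 3 had none in any actinomycin D library at 3 hpf. Summed maternal markers ran from 8534 to 10953 CPM in untreated embryos at 3 hpf and from 6278 to 7458 at 4 hpf, from 10107 to 11698 and from 8897 to 10857 with oligomycin, and from 9042 to 11174 and from 7215 to 8249 with actinomycin D.

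At 3 hpf, none of the 8 stress response and serine synthesis genes tested was called higher or lower in oligomycin than in untreated embryos. The same held for all 11238 genes by the quasi-likelihood test of edgeR, adjusted after Benjamini and Hochberg (0% called), and DESeq2 also called 0. At an unadjusted p under 0.05 the test picked 486 genes, of which 0 were among the 8. Differences in log2 were 0.08 for atf4a, −1.29 for atf4b, −0.10 for asns, 0.03 for psat1, 0.32 for phgdh, −0.31 for trib3, 0.23 for chac1 and 0.56 for sesn2, each with an adjusted p of 1. The 95% interval of the log2 difference ran from −0.57 to 0.72 for atf4a, from −0.65 to 0.44 for asns, from −0.25 to 0.32 for psat1 and from −0.03 to 0.66 for phgdh. It ran from −2.74 to 0.16 for atf4b, from −0.66 to 0.05 for trib3 and from −0.20 to 0.66 for chac1. For sesn2 it ran from −0.003 to 1.12 (edgeR unadjusted p = 0.0510), so a 2-fold rise of sesn2 lies within it. Within the series, sesn2 gave 0.60 in the first and 0.56 in the second, whereas atf4b gave −2.12 in the first and 0.27 in the second. For sesn2, oligomycin replicates 1 and 3 held 53.8 and 84.2 CPM, beside 26.5 and 39.6 CPM in untreated replicates 1 and 3. Oligomycin replicates 2 and 4 held 27.4 and 42.9 CPM, beside 27.3 and 45.5 CPM. Oligomycin replicate 3 had the lowest total count of all libraries (1453642). It also held the highest values of phgdh (116 CPM) and chac1 (577 CPM) at 3 hpf. With 1 library left out the difference of sesn2 ran from 0.25 to 0.77.

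At 4 hpf the genes did not move as a block. With oligomycin, sesn2 and chac1 were higher than in untreated embryos, atf4a, atf4b and trib3 were lower, and asns, psat1 and phgdh passed in neither direction. Over all genes tested, 21.4% were called in this comparison, 12.3% higher and 9.05% lower (1383 and 1017 genes; 1703 and 638 when libraries were scaled by total counts instead of TMM factors). The median log2 difference was −0.33 over the 8 genes and −0.04 over all genes tested. In the first series alone, with 2 libraries a group, 4 of these 5 calls held (all but chac1), and 1289 of all genes were higher and 1005 lower. In the second series alone none did, and 164 of all genes were called (157 higher and 7 lower). Without untreated replicate 1 or without oligomycin replicate 1 the calls numbered 3 in place of 5.

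**Figure D1:**
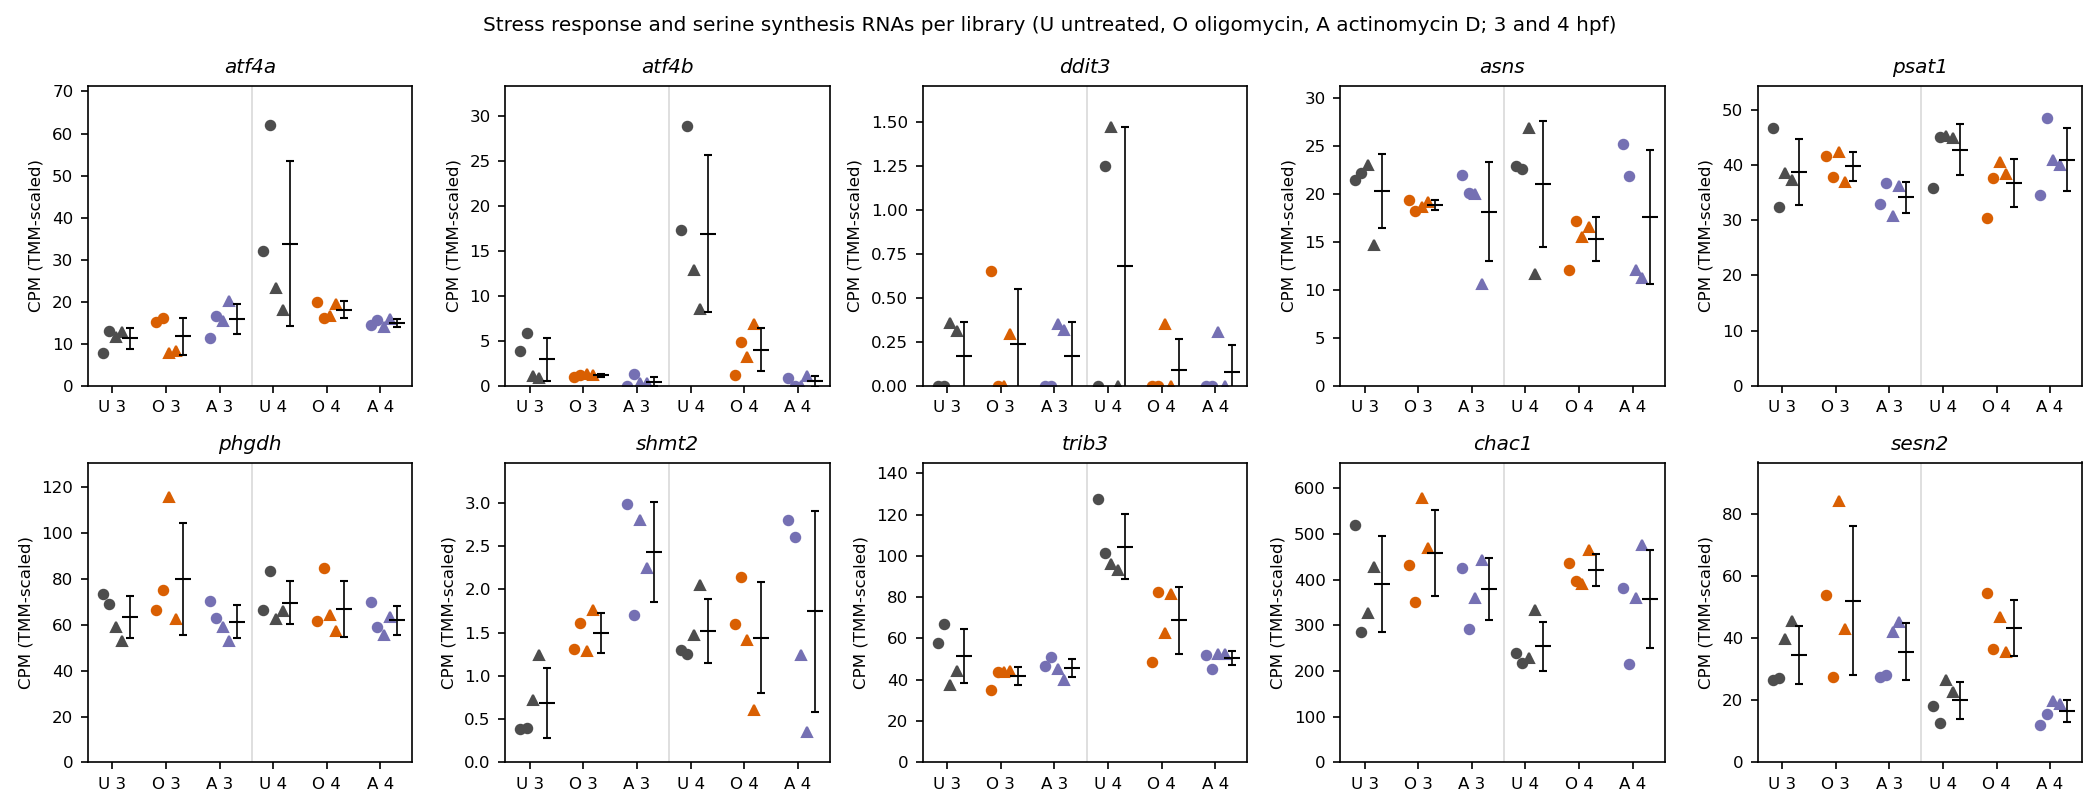
RNA level of each of the 10 genes in CPM after TMM scaling (vertical axes from 0) in untreated (U), oligomycin (O) and actinomycin D (A) embryos at 3 and 4 hpf. Circles are libraries of the first series, triangles of the second, and the line with bars is the mean ± SD of 4 libraries. Untreated embryos at 4 hpf held the highest mean of atf4a (33.8 CPM), atf4b (16.9 CPM) and trib3 (105 CPM), and oligomycin embryos at both times the highest means of chac1 and sesn2.

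The factor atf4a, one of the pair of zebrafish copies of ATF4, had 32.0, 62.1, 23.2 and 18.1 CPM in untreated embryos at 4 hpf (replicates 1 to 4). Oligomycin embryos had 20.1, 16.1, 16.6 and 19.5 CPM, so the lowest untreated library lay within the oligomycin range. The mean was 33.8 ± 19.7 CPM in untreated and 18.1 ± 2.01 CPM in oligomycin embryos (SD, n = 4 each). Replicate 2 lifts the untreated mean most, and replicates 1 and 3 also lay above every oligomycin library. The log2 difference was −0.87 (SE 0.289, edgeR adjusted p = 0.0329). It was −1.35 and −0.15 in the first and second series. Without untreated replicate 2 it was −0.38 (adjusted p = 0.334), and the call was also lost without untreated replicate 1 or without oligomycin replicates 1, 2 or 3.

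At 3 hpf atf4a lay at 7.79, 13.0, 11.5 and 12.8 CPM in untreated and at 15.1, 16.1, 7.71 and 8.22 CPM in oligomycin embryos. The oligomycin libraries of the first series were thus above all untreated ones and those of the second series below at least 3 of the 4, with log2 differences of 0.58 and −0.59. Whether the effect of oligomycin on atf4a differed between the times was tested as an interaction, which gave −0.94 in log2 (SE 0.426, edgeR adjusted p = 0.268), with −1.93 and 0.44 in the first and second series. Over all genes, 1.02% were called in that interaction, 0.81% higher and 0.214% lower (91 and 24 genes; 177 and 20 with total counts), and 0 of the 8 were. This background depends strongly on the setting: DESeq2 called 329 and 107 genes, the fit blocked by library set 657 and 199, a fit of only the groups compared 13 and 2 and the second series alone 0. Without oligomycin replicate 1 at 4 hpf it was 0, and without replicate 4 it was 361 genes. None of these settings called any of the 8.

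The second copy, atf4b, showed the widest range of the set. Untreated embryos held 3.89, 5.93, 1.08 and 0.934 CPM at 3 hpf and 17.3, 28.8, 12.9 and 8.56 CPM at 4 hpf. Oligomycin embryos held 0.984, 1.21, 1.28 and 1.17 CPM and then 1.20, 4.83, 3.17 and 6.91 CPM. At 4 hpf all 4 oligomycin libraries lay below all 4 untreated ones. The log2 difference was −2.01 (SE 0.524, edgeR adjusted p = 0.00757), with −2.97 and −1.02 in the first and second series, and it stayed called without any 1 library (−2.45 to −1.60). At 3 hpf the difference was −1.29 (unadjusted p = 0.0781), and the interaction of oligomycin with time was −0.72 (edgeR adjusted p = 0.781).

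The factor ddit3, which encodes CHOP, was at the limit of detection. Its counts were 0, 0, 1 and 1 in untreated and 2, 0, 0 and 1 in oligomycin libraries at 3 hpf, then 0, 2, 4 and 0 in untreated and 0, 0, 1 and 0 in oligomycin libraries at 4 hpf. Actinomycin D libraries held 0, 0, 1 and 1 and then 0, 0, 1 and 0. With at most 4 counts in any library, a difference in ddit3 was not detectable at this depth. Without the filter on low counts its log2 difference between oligomycin and untreated embryos was 0.51 at 3 hpf (edgeR adjusted p = 1) and −2.24 at 4 hpf (adjusted p = 0.351).

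The next group holds the feedback and stress genes. trib3 encodes a pseudokinase that in mammals binds ATF4 and limits its activity. It had 57.6, 66.8, 37.4 and 44.2 CPM in untreated and 35.1, 43.6, 43.7 and 44.3 CPM in oligomycin embryos at 3 hpf, where the groups overlap. At 4 hpf it had 127, 102, 96.0 and 93.1 CPM in untreated and 48.5, 82.7, 62.4 and 81.4 CPM in oligomycin embryos, all 4 below the lowest untreated library. The log2 difference at 4 hpf was −0.60 (SE 0.167, edgeR adjusted p = 0.0112), with −0.81 and −0.35 in the first and second series. The call was lost without untreated replicate 1 (−0.46, adjusted p = 0.0936) and without oligomycin replicate 1 (adjusted p = 0.0617). The interaction with time was −0.30 (edgeR adjusted p = 0.595).

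Transcripts of chac1, whose enzyme degrades glutathione, went the other way. At 3 hpf they stood at 519, 285, 327 and 427 CPM in untreated and at 431, 352, 577 and 469 CPM in oligomycin embryos. At 4 hpf the untreated libraries had 239, 218, 227 and 334 CPM and the oligomycin libraries 436, 396, 389.7 and 464 CPM, without overlap. The log2 difference at 4 hpf was 0.73 (SE 0.210, edgeR adjusted p = 0.0157), or 1.65-fold, and it stayed called without any 1 library (0.68 to 0.89). It was 0.87 and 0.65 in the first and second series, each fitted with 2 libraries a group and neither called. The interaction with time was 0.50 (edgeR adjusted p = 0.437).

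Sestrin 2, encoded by sesn2, is a stress protein that in mammals restrains the growth kinase mTORC1 when leucine is short. Its RNA stood at 26.5, 27.3, 39.6 and 45.5 CPM in untreated and at 53.8, 27.4, 84.2 and 42.9 CPM in oligomycin embryos at 3 hpf, with overlap. At 4 hpf the untreated libraries held 18.1, 12.5, 26.5 and 22.6 CPM and the oligomycin libraries 54.5, 36.5, 46.9 and 35.4 CPM, so that every oligomycin library exceeded every untreated one. The log2 difference was 1.09 (SE 0.285, edgeR adjusted p = 0.00788), or 2.13-fold, and it lay between 0.97 and 1.26 with any 1 library left out, called each time. It was 1.56 and 0.79 in the first and second series. The interaction with time was 0.53 (edgeR adjusted p = 0.549), so a larger effect at 4 than at 3 hpf was not shown.

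The biosynthetic enzymes passed in neither direction at either time. asns makes asparagine and is a standard reporter of ATF4 activity in mammals. At 3 hpf it had 21.4, 22.1, 23.0 and 14.6 CPM in untreated and 19.4, 18.2, 18.6 and 19.1 CPM in oligomycin embryos. At 4 hpf it had 22.9, 22.6, 26.9 and 11.6 CPM in untreated and 12.0, 17.2, 15.5 and 16.5 CPM in oligomycin embryos, where 3 of 4 untreated libraries lay above all oligomycin ones and replicate 4 below them. The log2 difference was −0.45 (SE 0.272, edgeR adjusted p = 0.253), and its 95% interval ran from −1.01 to 0.11.

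phgdh catalyses the first committed step of serine synthesis and psat1 the transamination that follows. phgdh had 73.2, 68.8, 59.0 and 52.9 CPM in untreated embryos at 3 hpf and 66.5, 83.4, 62.5 and 65.7 CPM at 4 hpf. In oligomycin embryos it had 66.6, 75.0, 116 and 62.5 CPM and then 61.8, 84.8, 64.2 and 57.3 CPM. Apart from replicate 3 at 3 hpf, the oligomycin libraries lay close to the untreated range at both times. At 4 hpf the log2 difference was −0.05 (SE 0.169, edgeR adjusted p = 0.861; 95% interval −0.40 to 0.29).

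For psat1 the untreated libraries had 46.7, 32.4, 38.5 and 37.4 CPM at 3 hpf and 35.8, 45.1, 45.3 and 44.9 CPM at 4 hpf. The oligomycin libraries had 41.7, 37.9, 42.4 and 37.0 CPM and then 30.5, 37.6, 40.6 and 38.4 CPM. At 4 hpf 3 of 4 untreated libraries were above all oligomycin libraries, and the log2 difference was −0.22 (SE 0.139, edgeR adjusted p = 0.279; 95% interval −0.50 to 0.07). At both times the 95% intervals of psat1, phgdh and asns ended below a log2 difference of 1, a 2-fold rise.

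The mitochondrial serine hydroxymethyltransferase shmt2 did not pass the filter on low counts. Its counts were 1, 1, 2 and 4 in untreated and 4, 4, 2 and 6 in oligomycin libraries at 3 hpf, 3, 2, 4 and 6 and then 4, 4, 4 and 2 at 4 hpf, and 6, 4, 8 and 7 and then 6, 5, 4 and 1 with actinomycin D. No library held more than 8 counts. At 3 hpf shmt2 had 0.389, 0.395, 0.720 and 1.25 CPM in untreated, 1.31, 1.61, 1.28 and 1.76 CPM in oligomycin and 2.99, 1.71, 2.80 and 2.24 CPM in actinomycin D embryos. In CPM every library of either treatment was thus above every untreated one, whereas the groups at 4 hpf overlap. In counts the oligomycin and untreated libraries at 3 hpf overlap. Oligomycin replicate 3 held 2 counts (1.28 CPM) and untreated replicate 4 held 4 counts (1.25 CPM). In a fit without the filter the log2 difference of shmt2 at 3 hpf was 1.03 with oligomycin (SE 0.656, edgeR adjusted p = 0.936) and 1.70 with actinomycin D (SE 0.621, adjusted p = 0.873), and at 4 hpf it was −0.13 with oligomycin.

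**Figure D2:**
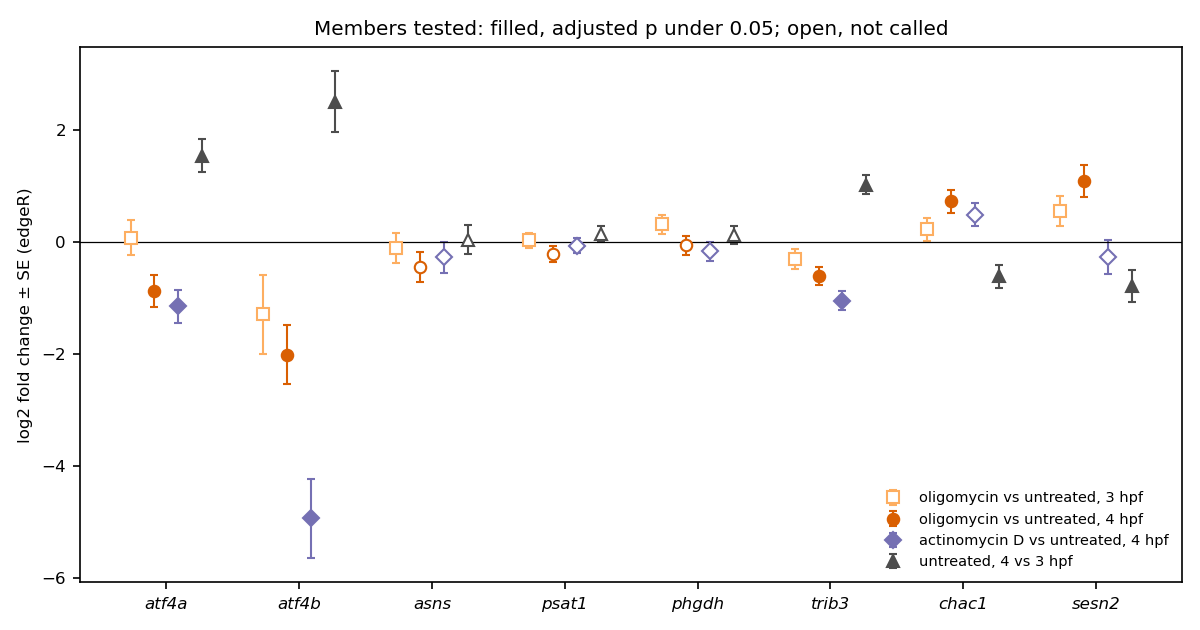
log2 fold change ± SE from edgeR for the 8 genes tested in oligomycin against untreated at 3 and 4 hpf, actinomycin D against untreated at 4 hpf, and untreated 4 against 3 hpf; filled symbols have an adjusted p under 0.05. At 4 hpf with oligomycin sesn2 (1.09) and chac1 (0.73) are filled above 0 and atf4a (−0.87), atf4b (−2.01) and trib3 (−0.60) below it. The comparisons share untreated libraries, and the actinomycin D value of atf4b is fitted against libraries at the floor of 3 counts.

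The change of untreated embryos from 3 to 4 hpf sets the scale for these differences, and it shares the untreated libraries at 4 hpf with the comparison above. In untreated embryos atf4a, atf4b and trib3 rose and chac1 and sesn2 fell from 3 to 4 hpf, which makes 3 of 8 higher and 2 of 8 lower beside 12.8% and 14.6% of all genes tested (1437 and 1643; 1003 and 2003 with total counts). The log2 change was 1.55 for atf4a (SE 0.298, edgeR adjusted p = 0.000429), 2.50 for atf4b (adjusted p = 0.00127) and 1.02 for trib3 (adjusted p = 9.61e-05). It was −0.61 for chac1 (adjusted p = 0.0328) and −0.78 for sesn2 (adjusted p = 0.0458). asns, psat1 and phgdh differed by 0.04, 0.14 and 0.13, none of them called.

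Side by side, the difference of oligomycin from untreated at 4 hpf and the untreated change with time were −0.87 and 1.55 for atf4a, −2.01 and 2.50 for atf4b, −0.60 and 1.02 for trib3, 0.73 and −0.61 for chac1, and 1.09 and −0.78 for sesn2. Within the series the untreated change of atf4a was 2.15 and 0.73, that of atf4b 2.20 and 3.32, that of trib3 0.88 and 1.17, that of chac1 −0.82 and −0.46 and that of sesn2 −0.79 and −0.83. The falls of chac1 and sesn2 were the weakest of these calls: they were lost in either series alone, and in 5 and 8 of 24 fits that left 1 library out.

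In oligomycin embryos 0 of the 8 genes were called between 3 and 4 hpf, where 0.516% of all genes tested were (0.498% higher and 0.0178% lower; 103 and 6 genes in the fit blocked by library set against 56 and 2 without the block). Over all genes that count was 2 without oligomycin replicate 1 at 3 hpf and 159 without oligomycin replicate 1 at 4 hpf. The log2 change was 0.72 for trib3 (edgeR adjusted p = 0.0543), 1.79 for atf4b (adjusted p = 0.409), 0.60 for atf4a (adjusted p = 0.714), −0.12 for chac1 (adjusted p = 0.985) and −0.24 for sesn2 (adjusted p = 0.949; 95% interval −0.80 to 0.31). In a fit blocked by library set, edgeR called trib3 (adjusted p = 0.0273).

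The stage markers moved beside these genes. Summed zygotic markers averaged 2247 ± 805 CPM in untreated and 934 ± 481 CPM in oligomycin embryos at 4 hpf (SD, n = 4), beside lower atf4a, atf4b and trib3, and 6 of 17 were called lower and 0 higher. That count was 2 without any one of untreated replicates 1 or 2 or oligomycin replicates 2 or 3, 1 without oligomycin replicate 1 or without the filter on low counts, 10 without oligomycin replicate 4, 3 with only the groups compared and 0 in the second series. Summed maternal markers averaged 6830 ± 597 CPM and 9819 ± 808 CPM, beside higher chac1 and sesn2, with 8 of 14 called higher and 2 lower. With 1 library left out 5 to 9 maternal markers were higher and 2 to 3 lower. In the second series 3 were higher and 0 lower. Between 3 and 4 hpf in untreated embryos 13 of 17 zygotic markers were called higher, and 8 of 14 maternal markers lower and 2 higher. Their part in the differences of the stress response genes was not tested.

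**Figure D3:**
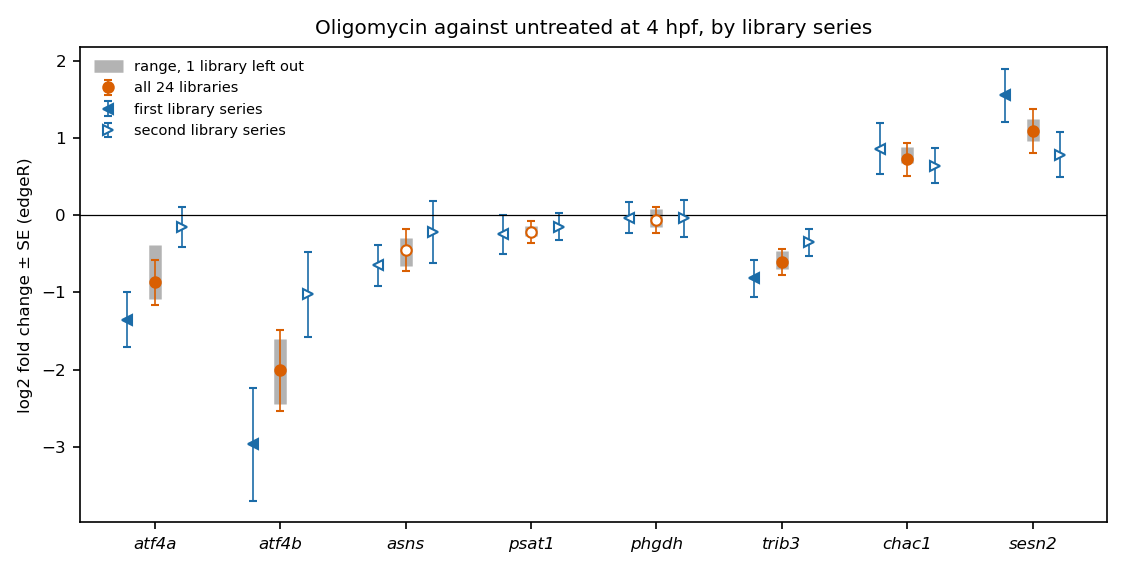
log2 fold change ± SE of oligomycin against untreated at 4 hpf for the 8 genes tested, from all 24 libraries (circles), the first library series alone and the second alone (triangles pointing left and right, 2 libraries a group each); grey bars give the range with 1 library left out and filled symbols are called. All 8 values keep their sign in both series, and those of atf4a, atf4b, trib3, chac1 and sesn2 are smaller in the second series, where none is called.

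Actinomycin D embryos, the study's control for blocked zygotic transcription, were set against the untreated libraries already used. At 3 hpf 0 of 8 genes were called. Over all genes tested 0.427% were, 0.0178% higher and 0.409% lower (2 and 46 genes). The fit blocked by library set called 3 and 27. At 3 hpf atf4b had 0, 1.28, 0.350 and 0.321 CPM, and untreated embryos had 3.89, 5.93, 1.08 and 0.934 CPM, with overlap. The untreated mean lay 2.47-fold above a floor of 3 counts per library. Untreated replicates 3 and 4 held 3 counts each, so this fold is not a minimum difference between the groups. The difference was not called (edgeR adjusted p = 0.400). At 4 hpf atf4a, atf4b and trib3 were lower than in untreated embryos and none was higher, beside 7.12% lower and 4.40% higher over all genes tested. atf4a had 14.5, 15.6, 13.9 and 15.8 CPM, below every untreated library, with a log2 difference of −1.15 (SE 0.294, edgeR adjusted p = 0.00847) that was −0.70 without untreated replicate 2 (adjusted p = 0.0970). atf4b had 0.933, 0, 0 and 1.05 CPM, below every untreated library (edgeR adjusted p = 1.50e-05). The untreated mean of atf4b at 4 hpf lay 13.7-fold above the floor.

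trib3 with actinomycin D had 52.2, 45.3, 52.3 and 52.3 CPM at 4 hpf, after 46.9, 50.8, 45.1 and 40.1 CPM at 3 hpf. Its log2 difference from untreated embryos at 4 hpf was −1.04 (SE 0.170, edgeR adjusted p = 7.12e-05), and its change from 3 to 4 hpf with actinomycin D was 0.15 (adjusted p = 0.659). chac1 had 381, 216, 359 and 475 CPM, against 239, 218, 227 and 334 CPM in untreated embryos, a log2 difference of 0.49 that was not called (edgeR adjusted p = 0.166). It was called without actinomycin D replicate 2 (0.67, adjusted p = 0.0221) and in the fit blocked by library set (adjusted p = 0.0176).

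The differences of asns, psat1 and phgdh between actinomycin D and untreated embryos at 4 hpf were −0.27, −0.06 and −0.16, and that of sesn2 was −0.27, none of them called. sesn2 had 12.1, 15.6, 19.8 and 18.9 CPM with actinomycin D at 4 hpf, after 27.4, 28.2, 42.0 and 45.2 CPM at 3 hpf. This fall of sesn2 with time was −1.09 in log2 (SE 0.291, edgeR adjusted p = 0.0166), the 1 call among the 8 genes beside 10.9% of all genes tested, 3.23% higher and 7.7% lower (363 and 865 genes; 203 and 952 with total counts, 947 and 1428 in the fit blocked by library set), and it was lost without actinomycin D replicates 3 or 4 at 3 hpf or replicate 1 at 4 hpf. In untreated embryos the fall was −0.78 and in oligomycin embryos the change was −0.24. Whether these 3 changes differ was tested only between untreated and oligomycin embryos, by the interaction given above.

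Oligomycin and actinomycin D embryos were then compared directly, without the untreated means but in the fit of all 24 libraries. Untreated libraries thus still entered the filter on low counts, the scaling and the estimate of spread. A fit of only the groups compared called 791 genes higher and 55 lower over all genes at 4 hpf. At 4 hpf sesn2 and atf4b were higher with oligomycin and 0 of the 8 genes were lower, beside 11.9% of all genes tested, 9.79% higher and 2.14% lower (1100 and 240 genes; 1569 and 770 in the fit blocked by library set). For sesn2 every oligomycin library exceeded every actinomycin D library, and the log2 difference was 1.36 (SE 0.289, edgeR adjusted p = 0.00287), with 1.72 and 1.11 in the first and second series. At 3 hpf the same difference was 0.51 (unadjusted p = 0.0721, adjusted p = 1), where 0 of 8 genes and 0.151% of all genes were called (0.133% higher and 0.0178% lower).

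Oligomycin replicate 1 at 4 hpf itself held 3 counts of atf4b, the floor. The oligomycin mean of atf4b was 4.03 ± 2.42 CPM, 3.26-fold above the floor of the actinomycin D libraries, and the difference was called (edgeR adjusted p = 0.0145). This call was lost without actinomycin D replicate 3 (adjusted p = 0.0530) or oligomycin replicate 4 (adjusted p = 0.0588). In a fit of only the groups compared atf4b did not pass the filter on low counts, so the call depends on a filter that includes other groups. trib3 was 0.44 higher in log2 without passing the test (adjusted p = 0.0981), and it was called without oligomycin replicate 1 (0.57, adjusted p = 0.0317). The differences of atf4a, chac1, asns, psat1 and phgdh were 0.28, 0.23, −0.17, −0.15 and 0.11, none of them called. All 17 zygotic markers were called higher with oligomycin in this comparison and 5 of 14 maternal markers were. Their part in the values of atf4b and sesn2 was not tested.

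Other genes of the pathway were described through 5 lists, each read beside the 12.3% higher and 9.05% lower over all genes at 4 hpf. With oligomycin each list had 2 genes higher, of 15, 24, 17, 14 and 17 tested in the order below. That is near the share over all genes. Lower were 1, 4, 0, 0 and 1. The counts of higher genes thus do not set the lists apart from all genes, and the genes named below are described one by one. In all 5 lists 0 genes were called between oligomycin and untreated embryos at 3 hpf. The list of eIF2 signalling machinery held the eIF2 kinases, subunits of eIF2 and of its exchange factor, the phosphatase adaptors and the mitochondrial relay (19 identifiers, 15 tested). It also held eif2a, gcn1 and impact, while the eIF2 subunit eif2s3 matched no identifier. At 4 hpf 2 of its genes were higher and 1 lower, with a median log2 difference of 0.05. The relay genes oma1 and eif2ak1 (HRI) were not among those called. eif2ak3, the endoplasmic reticulum kinase PERK, had 103 ± 26.6 CPM in untreated and 197 ± 28.9 CPM in oligomycin embryos (0.92, SE 0.205, edgeR adjusted p = 0.00241). dele1, the relay from mitochondria to eIF2 in human cells, had 47.5 ± 7.87 and 81.5 ± 17.7 CPM (0.77, adjusted p = 0.0107; 0.0618 without oligomycin replicate 1). ppp1r15a, the stress-induced adaptor (GADD34) that brings a phosphatase to eIF2, was lower (−0.74, adjusted p = 0.0351), a call lost in 8 of 24 fits without 1 library.

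In untreated embryos eif2ak3 and dele1 fell with time by 1.02 and 0.84 on the log2 scale. ppp1r15a rose by 0.84, a call lost in 2 of 24 fits without 1 library. These changes share the untreated libraries at 4 hpf with the comparison by which the genes were picked, so they are not separate evidence. With actinomycin D eif2ak3 and dele1 fell by 0.99 and 0.90, and with oligomycin their changes from 3 to 4 hpf were −0.13 and −0.27, neither of them called.

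ATF4-linked factors and targets, with transporters, tRNA synthetases and other sestrins, held 35 identifiers of which 24 were tested. Oligomycin embryos at 4 hpf had 2 of them higher and 4 lower, with a median of −0.16. nupr1a, a stress-induced chromatin protein gene, was higher (1.39, SE 0.245, edgeR adjusted p = 0.000354), with 41.8 ± 4.11 CPM in untreated and 110.4 ± 12.0 CPM in oligomycin embryos, and it was called in each series alone (1.51 and 1.34). vldlr, a lipoprotein receptor gene, was higher by less (0.32, adjusted p = 0.0325), a call lost in 3 of 24 fits without 1 library. With 1 library left out, the change of nupr1a from 3 to 4 hpf was −1.48 to −0.99 in untreated embryos. It was −1.95 to −1.58 with actinomycin D, both called each time, and −0.49 to −0.29 with oligomycin, never called. That of vldlr was −0.51 to −0.41 in untreated embryos, called each time, and −0.10 to 0.04 with oligomycin, never called. The untreated changes share libraries at 4 hpf with the comparison by which both genes were picked.

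The lower genes of that list included slc3a2b, the heavy chain of amino acid transporters, at 24.4 ± 17.1 CPM in untreated and 2.91 ± 3.28 CPM in oligomycin embryos (−2.93, edgeR adjusted p = 0.000658). They also included the factor cebpb, at 192 ± 86.5 and 38.5 ± 24.4 CPM (−2.29, adjusted p = 0.00072), and sesn3, a second sestrin, at 30.0 ± 26.2 and 5.38 ± 2.64 CPM (−2.41, adjusted p = 0.0056). sesn3 thus differed in the opposite direction to sesn2. The value of sesn3 was −3.55 and −0.29 in the first and second series, and its call was lost without untreated replicate 1 (adjusted p = 0.0564). In the second series alone slc3a2b gave −1.13 (edgeR adjusted p = 0.568) and cebpb −1.15 (adjusted p = 0.317), neither of them called. All 3 rose from 3 to 4 hpf in untreated embryos, cebpb by 3.70 and sesn3 by 5.26 in log2. These rises share the untreated libraries at 4 hpf with the comparison by which the genes were picked. The mean of slc3a2b at 4 hpf was 22.4-fold above the floor of 3 counts per library at 3 hpf. No library of slc3a2b passed 3 counts in untreated or oligomycin embryos at 3 hpf or with actinomycin D at 4 hpf. Its place among the genes tested rested mainly on untreated embryos at 4 hpf, the group that oligomycin was compared with. In a fit of only oligomycin and actinomycin D embryos at 4 hpf, slc3a2b and sesn3 did not pass the filter on low counts.

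Serine, glycine and one-carbon metabolism beyond the set itself held 21 identifiers, of which 17 were tested, 2 were higher at 4 hpf with oligomycin and 0 lower, with a median of −0.13. The 2 were amt, of the glycine cleavage system (1.06, SE 0.291, edgeR adjusted p = 0.0104), and tyms, thymidylate synthase (0.68, SE 0.197, adjusted p = 0.0155). Both were also higher with actinomycin D than in untreated embryos (1.37 and 0.64, adjusted p = 0.00129 and 0.0312; the second was lost in 4 of 24 fits without 1 library), and their differences between oligomycin and actinomycin D were −0.30 and 0.03, not called. Both comparisons with untreated embryos used the same untreated libraries at 4 hpf. With oligomycin the call of amt was lost without oligomycin replicate 1 (adjusted p = 0.0617) and that of tyms without untreated replicate 1 or oligomycin replicate 2.

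Of 14 mitochondrial chaperone and protease genes, all tested, lonp1 (0.71, SE 0.201, edgeR adjusted p = 0.0132) and afg3l2 (0.63, SE 0.186, adjusted p = 0.0164) were higher at 4 hpf with oligomycin and 0 were lower, with a median of 0.20. Both encode proteases of the mitochondrial interior. afg3l2 was also higher with actinomycin D (0.79, adjusted p = 0.00406), while lonp1 was higher with oligomycin than with actinomycin D (0.65, adjusted p = 0.0325; lost in 6 of 24 fits without 1 library). The afg3l2 call with oligomycin was lost without untreated replicate 1 (adjusted p = 0.0561). Its comparisons of oligomycin and of actinomycin D with untreated embryos used the same untreated libraries at 4 hpf.

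Of 17 genes tested for endoplasmic reticulum chaperones and the unfolded protein response, pdia4 and creld2 were higher, atf6 was lower, and the median was 0.19. pdia4, a protein disulfide isomerase gene, had 89.6 ± 16.8 CPM in untreated and 191 ± 26.3 CPM in oligomycin embryos at 4 hpf (1.09, SE 0.146, edgeR adjusted p = 2.51e-05). It was the 1 gene of the 5 lists called in the interaction of oligomycin with time (0.97, adjusted p = 0.0260). Over all genes tested 1.02% were called there. The call of pdia4 was lost in 6 of 24 fits without 1 library. pdia4 was also higher with actinomycin D than in untreated embryos at 4 hpf (0.60, edgeR adjusted p = 0.00523). With 1 library left out, its change from 3 to 4 hpf in untreated embryos was −1.10 to −0.92, called each time. With oligomycin that change was −0.12 to 0.03, never called. The comparisons that involve untreated embryos share their libraries at 4 hpf. Between oligomycin and untreated embryos at 4 hpf, creld2 differed by 1.03 (adjusted p = 0.0055). There atf6, a sensor of unfolded proteins, differed by −0.49 (adjusted p = 0.0371), a call lost in 10 of 24 fits without 1 library.

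**Figure D4:**
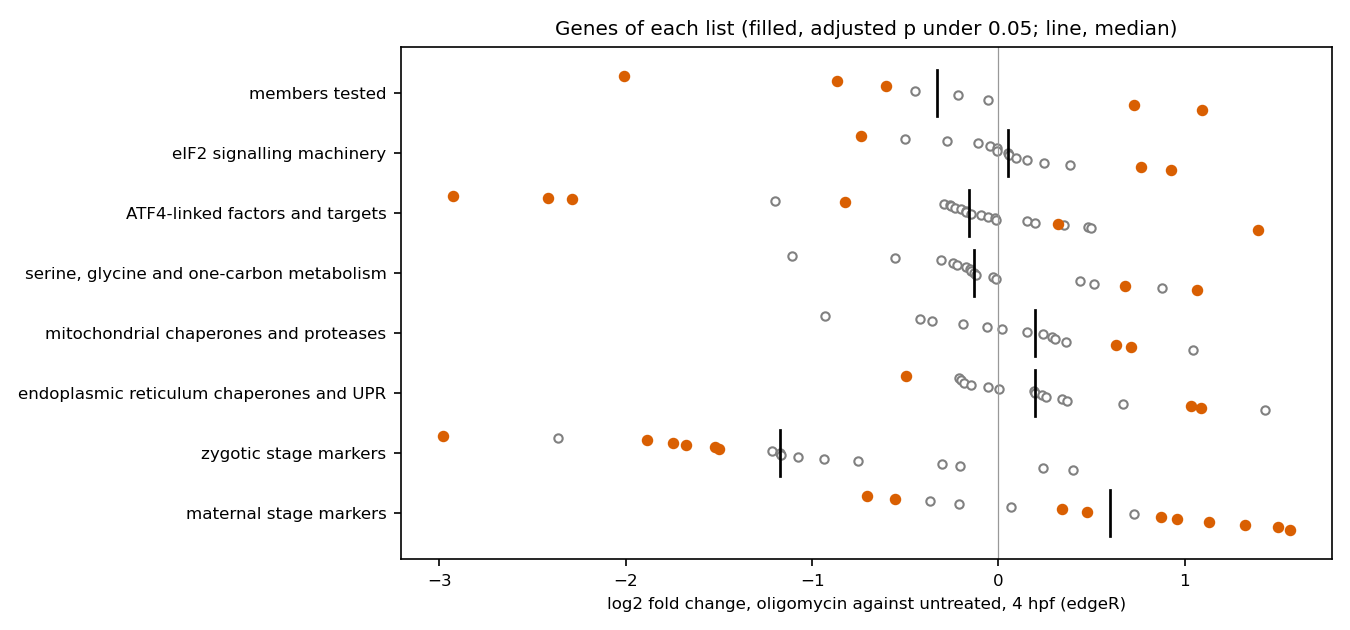
log2 fold change of oligomycin against untreated at 4 hpf for every gene tested of the set, the 5 pathway lists and the stage markers; filled points have an edgeR adjusted p under 0.05 and the vertical line of each row is its median. The medians of the pathway lists lie between −0.16 and 0.20, that of the zygotic markers at −1.17 and that of the maternal markers at 0.60.

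By likeness of log2 CPM over all 24 libraries, the genes closest to atf4a were sesn3 (Pearson r = 0.84), CAMSAP2 (r = 0.82) and HNF4A (r = 0.82). Those closest to atf4b were si:ch211-223a21.3, si:dkey-11o15.10 and ved (each r = 0.96), of which ved is a zygotic marker. These values describe libraries that fall into 6 groups and share depth and series, and ddit3 was too low for such a comparison.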

How the data were processed

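Raw read counts for each Ensembl identifier were deposited, 1 file a library; per the submitters' processing notes the tools include Bowtie2 2.3.4.1, featureCounts and Subread 1.6.2, and the build is GRCz11. Strand use, molecular identifiers and the annotation release are not given in the sources used here. Floors cover counting error only. The SE of an edgeR log2 difference was derived from that difference and its quasi-likelihood F statistic, and the 95% interval from this SE and a t quantile. Both include the spread between libraries. A symbol table named 29201 of 32520 identifiers. No coordinates or sequences were used here. The members and lists were chosen with earlier results of these data known.

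Replicates were numbered in accession order. By the numbers in their titles, libraries fall into 2 series of 12 and into 4 sets of 6 with 1 library per group. Deviations from group means correlated within every set (r above 0.1) in all comparisons except oligomycin against untreated at 3 and 4 hpf, where set 1 gave −0.00027 and 0.0763. Libraries of different sets were not correlated and each set lies within 1 series. The check therefore cannot tell pairing by set from a likeness shared within a series. The main fit and its p-values did not use the sets, and the fit blocked by set is given as an alternative.

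In R 4.3.3, edgeR 4.0.16 (filterByExpr by group with a minimum count of 10, TMM, robust quasi-likelihood) was fitted to all 24 libraries. The code was also run on simulated counts with the same spread setting for every gene and no series effect. That run does not cover the series structure of these libraries. A call is a Benjamini-Hochberg adjusted p under 0.05 over 11238 genes. Groups with no library above 3 counts enter a fold at that floor, set against the plain mean of the other group. Such a fold allows for counting error at the floor but not for the spread between libraries. Comparisons of oligomycin with actinomycin D at 3 hpf and of 4 with 3 hpf within each treatment were added after the data were seen. List names on more than 2 identifiers were left out (htra2). Text names follow a rule: all members, and from each list up to 3 genes per direction with the smallest p among those called at 4 hpf. Alternatives were other size factors, DESeq2 1.42.0, other filters, fewer groups, a set block, each series alone and each library left out.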

Additional observations from a re-analysis of the deposited data

Results flagged for a closer look

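Among 60 sets of 4 libraries (10 genes in 6 groups), 5 had a highest or lowest library far from the other 3 by Dixon's gap test, where chance flags about 1 in 20. In untreated embryos at 4 hpf, psat1 was low in replicate 1, at 35.8 CPM against 44.9 CPM in the nearest library. trib3 was low in replicate 1 of oligomycin at 3 hpf, at 35.1 CPM against 43.6 CPM, and in replicate 2 of actinomycin D at 4 hpf, at 45.3 CPM against 52.2 CPM. For ddit3 the flags rest on 1 count each, at 0.353 CPM in replicate 3 of oligomycin at 4 hpf and at 0.309 CPM in replicate 3 of actinomycin D at 4 hpf, where the other libraries had 0.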

How the results depend on the processing

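Of the 8 genes tested, those called in oligomycin against untreated embryos at 4 hpf numbered 5 with all libraries, 3 to 5 with any 1 library left out and 0 in the second series alone; the cause was not tested. Over all genes, 1537 to 2750 were called there with 1 library left out (1537 without untreated replicate 1), 164 in the second series and 3743 with the library set as a replicate block. That block changed no call of the 8 genes in this comparison, but raised the endoplasmic reticulum list to 7 higher and 1 lower and the mitochondrial list to 4 and 1. Leaving out the filter gave 1275 higher and 666 lower, and fitting only the groups compared 1178 and 597. In the interaction of oligomycin with time, 91 genes were higher and 24 lower, against 657 and 199 with the block, 329 and 107 by DESeq2, 13 and 2 with only the groups compared, 0 in the second series and 0 to 361 in all with 1 library left out. Small counts over all genes moved too. For actinomycin D against untreated embryos at 3 hpf, 2 and 46 became 2 and 149 by DESeq2, and 18 to 94 genes were called with 1 library left out. For oligomycin against actinomycin D at 3 hpf, 15 and 2 became 54 and 2, and 7 to 23 genes were called with 1 left out. For oligomycin from 3 to 4 hpf, 56 and 2 became 135 and 2, and 2 to 159 genes were called with 1 left out. For actinomycin D from 3 to 4 hpf, 363 and 865 became 3 and 216 in the first series and 5 and 364 in the second, and 557 to 1344 genes were called with 1 left out. For oligomycin against untreated embryos at 3 hpf the first series alone called 4 genes and no other setting any. No called value changed sign under any alternative.

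For untreated embryos from 3 to 4 hpf, calls among the 8 genes numbered 5 in the main fit, 3 without the filter on low counts, 3 in the first series, 2 in the second and 3 to 5 with 1 library left out (3 without untreated replicates 1 or 2 at 4 hpf or replicate 4 at 3 hpf). For oligomycin against actinomycin D at 4 hpf they numbered 2, then 1 in the first series, 0 in the second, 1 with only the groups compared and 1 to 3 with 1 library left out. For oligomycin from 3 to 4 hpf they numbered 0, then 1 (trib3) by DESeq2, without the filter, with a mean of at least 10 counts and with the replicate block, and 0 to 1 with 1 library left out. For actinomycin D from 3 to 4 hpf they numbered 1, then 0 in the first series and 0 to 1 with 1 library left out. Apart from trib3 there and chac1 in actinomycin D against untreated embryos at 4 hpf, the block changed no call given for the 8 genes. Among the list genes named, it lost no call in any comparison and added 8, 3 of them in the interaction (eif2ak3, nupr1a and afg3l2). With total counts the calls of ppp1r15a and atf6 in oligomycin against untreated embryos at 4 hpf were lost. In the second series alone nupr1a and pdia4 kept their calls in that comparison, and all other list genes named lost theirs.

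Values that changed sign were all uncalled. In oligomycin against untreated embryos at 3 hpf they were phgdh (−0.0059) and chac1 (−0.040) in the first series, and atf4a (−0.59), atf4b (0.27), asns (0.020) and trib3 (0.12) in the second; with 1 library left out atf4a ran from −0.10 to 0.24 and psat1 from −0.035 to 0.14. At 4 hpf phgdh was 0.037 with total counts and −0.15 to 0.080 with 1 library left out. The interaction of atf4a was 0.44 in the second series. In untreated embryos over time asns was −0.052 with total counts, −0.0021 without the filter, −0.0033 in the second series and −0.11 to 0.26 with 1 library left out, and phgdh ran from −0.0027 to 0.17. In actinomycin D against untreated embryos at 4 hpf asns (0.053) and psat1 (0.041) turned in the first series, and psat1 ran from −0.15 to 0.015. In oligomycin against actinomycin D at 4 hpf asns was 0.49 in the second series and −0.34 to 0.084 with 1 library left out. Within oligomycin over time chac1 was 0.087 and sesn2 0.16 in the first series, with ranges of −0.22 to 0.016 and −0.45 to 0.065, and within actinomycin D trib3 was −0.0034 in the first series.

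Depth limits ddit3 and shmt2, which no library held at more than 8 counts, and leaves wide intervals for atf4b. Each series alone has 2 libraries a group, so a lost call by itself does not show a smaller effect. At that same number, oligomycin against untreated embryos at 4 hpf gave 1289 genes higher and 1005 lower in the first series. The second gave 157 and 7. The differences of atf4a, atf4b, trib3, chac1 and sesn2 were also smaller in the second series. Whether the effect differs between the series was not tested.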

Other observations

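Counts for the pathway lists in the other comparisons were small. In untreated embryos from 3 to 4 hpf, 6 of 24 tested ATF4-linked genes rose and 3 fell, while 1 rose and 2 fell among 15 genes of eIF2 signalling, 1 rose and 2 fell among 17 of serine, glycine and one-carbon metabolism, 0 rose and 1 fell among 14 mitochondrial chaperones and proteases, and 1 rose and 3 fell among 17 of the endoplasmic reticulum list. Over all genes tested, 12.8% rose and 14.6% fell. With actinomycin D against untreated embryos at 4 hpf, 3 of the ATF4-linked genes and 1 eIF2 signalling gene were lower and 0 higher, whereas 3 of the serine and one-carbon genes, 2 mitochondrial and 2 endoplasmic reticulum genes were higher and 0 lower, beside 4.40% higher and 7.12% lower over all genes. In oligomycin against actinomycin D embryos at 4 hpf, 4 of 24 tested ATF4-linked genes were higher and 0 lower. Higher too was 1 gene each of the eIF2, mitochondrial and endoplasmic reticulum lists, while 1 serine and one-carbon gene was lower and 0 higher, beside 9.79% and 2.14%. The 4 were nupr1a, slc3a2b, cebpb and sesn3, and all but nupr1a lost the call in either series alone. That of sesn3 was lost in 15 of 24 fits without 1 library. With only the groups compared, slc3a2b and sesn3 did not pass the filter on low counts.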
